A study of Mus musculus with 45 samples.

Results

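The very long transcripts described here are the 3109 of 122968 annotated mouse transcripts (2.53%) that span at least 200 kb from start to end. They come from 1052 genes, run from 200.0 to 4434.9 kb with a median of 318.29 kb, and 76.8% of them are annotated as protein coding. They were followed in mouse embryonic stem cells (ESCs) by 4sU-DRB-seq, in which DRB arrests RNA polymerase II (RNAPII) near the start of genes, its removal releases the polymerase as a synchronous wave, and RNA labelled with 4-thiouridine is purified and sequenced. All cells carried an edited or unedited endogenous Polr2a gene, which encodes the largest RNAPII subunit. WT/WT cells had unedited alleles, WT/slow cells were heterozygous and slow/slow cells homozygous for the R749H knock-in, a change that slows elongation, and all were grown in 2i medium and treated with DRB for 4 h. RNA was taken 5, 15 and 30 min after DRB removal from 3 biological replicates of each genotype, which gave 9 groups and 27 samples. The remaining 18 samples, taken without DRB or at 0 min, were not analysed here. The sources used here do not say how many independent lines each genotype was drawn from, so line and genotype cannot be told apart, and the files hold no expression values against which the cell type could be checked.

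For each transcript and sample the deposited value is a boundary, the distance in bases from the transcript's start to the end of the wave of nascent RNA, called the front here and given in kb. RNAPII must copy the whole of a gene, introns included, before a full transcript is released, so a very long gene occupies a polymerase for a long time and its early kilobases are mostly intron. Very long genes are known for cell adhesion molecules, synaptic receptors, ion channels and cytoskeletal linkers of neurons and muscle, and several of them lie at common fragile sites, which break when replication is stressed.

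The starts of the very long genes differed in sequence in a way that went with where their fronts were placed, and 8 starts are shown for that reason, each as the 200 bases before the transcript's start in GRCm38 (mm10), 5′ to 3′ on the gene's own strand, with every CG in capitals. The 4 starts that follow are rich in CG and come from genes whose fronts lay well into the gene at 15 min in at least 1 genotype. These are Chn2, a GTPase-activating protein for Rac (chr6:54039373-54039572, plus strand, 13 CG), Bbs9, a subunit of the BBSome of cilia (chr9:22475515-22475714, plus strand, 18 CG), Camta1, a calmodulin-binding transcription activator (chr4:151861670-151861869, minus strand, 31 CG), and Immp2l, a subunit of the mitochondrial inner membrane peptidase (chr12:41023890-41024089, plus strand, 23 CG).
Chn2: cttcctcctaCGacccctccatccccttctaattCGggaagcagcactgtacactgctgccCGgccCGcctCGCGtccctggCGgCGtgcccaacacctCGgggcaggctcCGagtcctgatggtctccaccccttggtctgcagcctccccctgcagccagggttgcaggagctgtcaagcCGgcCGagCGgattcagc
Bbs9: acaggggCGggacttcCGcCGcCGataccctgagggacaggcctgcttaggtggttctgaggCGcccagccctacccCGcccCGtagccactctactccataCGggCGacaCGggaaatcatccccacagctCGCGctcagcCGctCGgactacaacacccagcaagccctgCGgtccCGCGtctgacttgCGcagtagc
Camta1: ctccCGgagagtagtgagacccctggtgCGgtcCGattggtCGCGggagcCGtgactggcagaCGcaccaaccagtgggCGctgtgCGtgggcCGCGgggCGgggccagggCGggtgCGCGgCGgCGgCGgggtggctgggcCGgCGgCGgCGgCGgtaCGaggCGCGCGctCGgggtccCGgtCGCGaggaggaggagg
Immp2l: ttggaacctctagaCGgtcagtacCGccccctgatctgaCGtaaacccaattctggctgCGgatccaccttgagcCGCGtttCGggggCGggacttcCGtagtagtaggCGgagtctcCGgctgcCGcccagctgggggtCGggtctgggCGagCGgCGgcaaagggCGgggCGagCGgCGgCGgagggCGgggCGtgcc

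The other starts come from genes with few CG or with fronts that stayed close to the start. They are Dmd, which encodes dystrophin (chrX:82948703-82948902, plus strand, 2 CG), Pde4d, a cyclic AMP phosphodiesterase (chr13:108653977-108654176, plus strand, 1 CG), Cntnap2, a neurexin-family adhesion protein of axons (chr6:45059861-45060060, plus strand, 9 CG), and Lrp1b, a receptor of the LDL receptor family (chr2:42653625-42653824, minus strand, 1 CG). Lrp1b is shown because it is an exception, with few CG and fronts that often lay far from the start. Exceptions of the other kind are not shown. Galntl6 had 13 CG in these bases and fronts mostly at 2.5 kb. Dst had 39 CG and fronts at 2.5 kb throughout WT/slow cells, though not in WT/WT cells.
Dmd: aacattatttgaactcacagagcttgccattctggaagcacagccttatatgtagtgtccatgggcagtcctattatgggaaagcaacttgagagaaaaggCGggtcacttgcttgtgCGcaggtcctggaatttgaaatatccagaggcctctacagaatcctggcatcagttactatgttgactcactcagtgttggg
Pde4d: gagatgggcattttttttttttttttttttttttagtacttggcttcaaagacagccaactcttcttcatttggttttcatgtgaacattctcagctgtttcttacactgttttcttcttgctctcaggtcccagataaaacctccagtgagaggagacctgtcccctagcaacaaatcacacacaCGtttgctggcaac
Cntnap2: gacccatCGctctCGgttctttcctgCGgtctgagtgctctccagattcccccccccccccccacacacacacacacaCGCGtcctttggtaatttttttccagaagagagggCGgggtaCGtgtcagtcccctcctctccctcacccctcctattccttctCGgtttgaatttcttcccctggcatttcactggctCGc
Lrp1b: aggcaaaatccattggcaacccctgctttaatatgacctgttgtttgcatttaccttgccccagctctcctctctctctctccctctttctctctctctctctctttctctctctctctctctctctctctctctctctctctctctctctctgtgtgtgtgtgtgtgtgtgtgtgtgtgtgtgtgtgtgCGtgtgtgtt

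A front was placed in nearly every very long transcript, and many of those fronts sat at a single value. Of the 3109 transcripts, 2429 (78.1%) had a front in all 27 samples, against 17.6% of transcripts of every length. Another 666 had a front in 1 to 26 samples, and 14 transcripts of 9 genes, among them the axon guidance receptor Dcc, the transcription factor Foxp2 and the catenins Ctnna2 and Ctnna3, had none in any sample. Among the 123 transcripts of at least 1000 kb, 121 had a front in all 27 samples. Of the 80384 fronts in very long transcripts, 42.0% were exactly 2.5 kb, whereas the next commonest value, 4.5 kb, made up 0.420%, and 1.19% lay below 2.5 kb. The highest front was 58.8 kb. In each genotype and at each time the highest front lay between 57.2 and 58.8 kb, at 5 min as at 30 min. What set this common highest value was not tested. That no front reached the end of a very long transcript is therefore not a result. What a value of exactly 2.5 kb stands for is not given in the sources used here, and fronts at that value are therefore counted apart. Sample medians of fronts above 2.5 kb were taken over every front not at 2.5 kb, so that the few fronts below it are included. Sets said to have every front above 2.5 kb hold none below it.

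Transcripts of a gene often share a start, so the members are not independent of one another. They had 2638 distinct start sites, and 768 shared a start with another member. At 248 of the 297 start sites with several members, the members had identical values in all samples. In 37 genes (3.52%) the longest transcript started within 1 kb of a transcript of another gene on the same strand, so that the fronts of the overlapping genes cannot be told apart there. These include the longest transcript of all, Gm20388, which starts at Usp10, the longest Fgfr2 transcript, which starts at Ctbp2, and Gm45062, which starts at Umad1.

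Some samples stood apart from the replicates of their group in the very long transcripts. In the second replicate of WT/WT cells at 15 min, 38.9% of fronts were at 2.5 kb, against 30.2% and 31.6% in the other replicates, and the median of the fronts above 2.5 kb was 14.65 kb, against 21.2 and 21.3 kb. In the second WT/WT replicate at 5 min that median was 14.85 kb, against 10.1 and 9.8 kb. In the second slow/slow replicate at 30 min, 89.2% of the transcripts had a front, against 97.0% and 97.6%. Comparisons of sample summaries between genotypes or times that these samples moved by over 1.5 times are also given without them. Replicates placed the front of a given transcript at quite different distances, with Spearman's rho between replicates over transcripts, which share samples and starts, of 0.28 to 0.47 for WT/WT cells at 15 min and 0.57 to 0.65 for slow/slow cells at 15 min.

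The fronts of very long transcripts that lay above 2.5 kb stood farther into the gene at 15 min than at 5 min, and at 30 min most fronts were at 2.5 kb. In WT/WT cells the share of fronts at 2.5 kb was 29.9%, 28.3% and 31.0% in the replicates at 5 min, 30.2%, 38.9% and 31.6% at 15 min, and 53.6%, 61.6% and 64.4% at 30 min. In WT/slow cells the shares were 31.9%, 32.8% and 36.3% at 5 min, 29.5%, 30.5% and 29.6% at 15 min, and 63.2%, 65.5% and 66.5% at 30 min. In slow/slow cells they were 30.7%, 38.0% and 36.0% at 5 min, 24.9%, 31.0% and 28.5% at 15 min, and 58.8%, 71.3% and 59.3% at 30 min. Every sample at 30 min was above every sample at the earlier times, whereas the shares at 5 and 15 min lay in the same range. Over the 3 genotypes, the share rose by 32.2 percentage points from 15 to 30 min (exact permutation test within genotypes, two-sided p = 0.00025, adjusted p = 0.00167 over 20 tests) and changed by -2.25 points from 5 to 15 min (exact p = 0.227, adjusted p = 0.457), or -3.14 points without the second WT/WT replicate at 15 min (exact p = 0.0372).

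Among fronts above 2.5 kb, with the few below 2.5 kb included, the median distance was larger at 15 min than at 5 min over the genotypes together. In WT/WT cells the sample medians were 10.1, 14.85 and 9.8 kb at 5 min and 21.2, 14.65 and 21.3 kb at 15 min, so that the groups overlapped through the second replicate of each. In WT/slow cells they were 10, 12 and 9.3 kb at 5 min and 21.2, 21.2 and 22.6 kb at 15 min. The slow/slow medians were 11.2, 9.4 and 8.7 kb at 5 min and 25.2, 23.5 and 19.9 kb at 15 min, and neither of the mutant genotypes had replicates that overlapped between those times. At 30 min the sample medians ran from 7.0 to 13.1 kb over the 9 samples. Over the 3 genotypes the median rose by 10.6 kb from 5 to 15 min (exact permutation test within genotypes, p = 0.0005, adjusted p = 0.0025) and differed by -11.97 kb between 30 and 15 min (exact p = 0.00025, adjusted p = 0.00167).

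**Figure D1:**
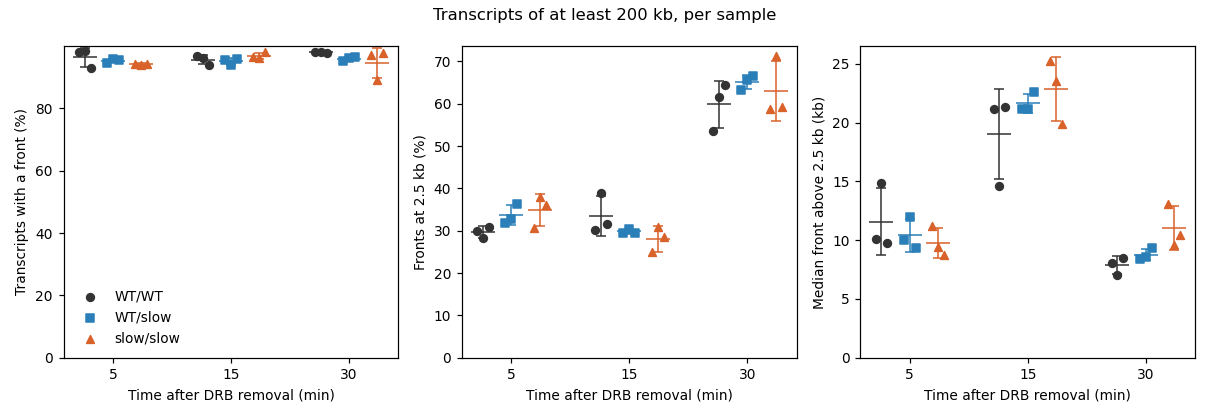
Share of very long transcripts with a front (%), share of fronts at 2.5 kb (%) and median of the fronts above 2.5 kb (kb), each against time after DRB removal (min), with 1 point per sample, by genotype, and a bar at the mean of 3 replicates. The median is over every front not at 2.5 kb. The share at 2.5 kb is between 24.9% and 38.9% at 5 and 15 min and between 53.6% and 71.3% at 30 min, and at 15 min every sample but the second WT/WT replicate (14.65 kb) has a median above those of all samples at 5 min.

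Most fronts above 2.5 kb lay in the first intron and early in the gene. Of the longest transcript of each gene, 913 had the same start and end in the GENCODE M21 annotation, with a median of 14 exons and a first intron of 61.3 kb at the median. In WT/WT cells, 75.4% of the fronts above 2.5 kb (median of 3 replicates) lay in intron 1 at 5 min, 69.7% at 15 min and 82.8% at 30 min. They stood at a median of 3.09%, 4.04% and 1.89% of the transcript's length at these times. The share in intron 1 in slow/slow cells was 76.4%, 68.5% and 79.6%, and no test was run on these shares.

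Very long transcripts had a front more often than transcripts of 100 to 200 kb in all 27 samples. The mean share over the samples was 95.8% for very long transcripts and 90.3% for the 4670 transcripts of 100 to 200 kb, a difference of 5.46 points (permutation test by sign flips over samples, 100000 resamples, p = 1e-05, the smallest it can give, adjusted p = 3.33e-05 over 20 tests). Fronts at 2.5 kb depended on length in opposite directions at the early and late times. At 5 min the share at 2.5 kb was 32.8% in very long transcripts against 22.1% in those of 100 to 200 kb, higher in 9 of 9 samples (exact sign-flip test, p = 0.0039). At 30 min it was 62.7% against 66.6%, lower in 8 of 9 samples (exact p = 0.012). At 15 min the fronts above 2.5 kb stood at a median of 21.2 kb in very long transcripts and 24.9 kb in the shorter ones, lower in 9 of 9 samples (exact p = 0.0039). Over the 27 samples together the share at 2.5 kb was higher by 3.63 points (permutation p = 0.0131, adjusted p = 0.0202), which became 1.82 points with 1 transcript per gene (p = 0.0575 by the same permutation test). These pooled values average times with differences of opposite sign, so they depend on how many samples each time had. Every sample holds the same transcripts, so the sign-flip tests measure agreement between samples and not spread among transcripts. The differences at single times were also smaller with 1 transcript per gene, for 1052 very long and 2126 shorter genes. The share at 2.5 kb then differed by 6.82 points at 5 min (higher in 9 of 9 samples, exact p = 0.0039) and -2.17 points at 30 min (lower in 7 of 9, exact p = 0.016), and the median of fronts above 2.5 kb at 15 min was 21.6 against 23.8 kb (lower in 8 of 9, exact p = 0.0078).

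The same order was seen within the very long transcripts. At 5 min the mean share of fronts at 2.5 kb over 9 samples was 26.1% for transcripts of 200 to 300 kb, 34.5% for 300 to 500 kb, 42.1% for 500 to 1000 kb and 50.7% for 1000 kb or more. At 30 min the order was turned, with 65.6%, 62.6%, 57.8% and 51.8%. At 15 min the medians of the fronts above 2.5 kb were 24.5, 20.2, 17.0 and 15.7 kb for these classes. Between the longest and the shortest of these classes the share at 2.5 kb differed by 24.6 points at 5 min, 13.0 points at 15 min and -13.8 points at 30 min, and by 7.91 points over all 27 samples (permutation p = 0.0405, adjusted p = 0.0477). The value over all samples again averages differences of opposite sign. The length limit itself marked no step, since the shares at 2.5 kb at 5, 15 and 30 min were 25.3%, 25.1% and 64.0% for transcripts of 180 to 200 kb and 23.8%, 28.3% and 67.9% for those of 200 to 220 kb.

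**Figure D2:**
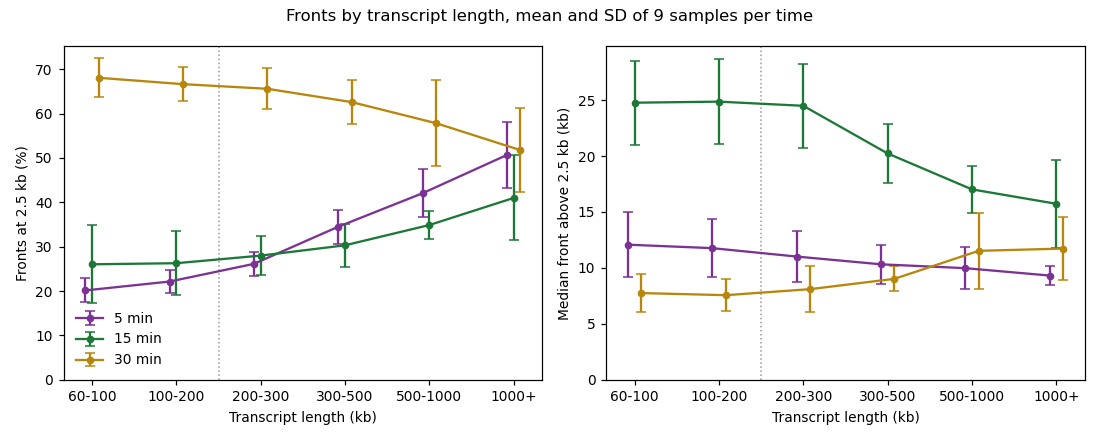
Share of fronts at 2.5 kb (%) and median of the fronts above 2.5 kb (kb) against transcript length in 6 classes (kb), with the mean and SD of 9 samples at each time after DRB removal. The median is over every front not at 2.5 kb, and the dotted line marks 200 kb. From 200 to 300 kb to at least 1000 kb the share at 2.5 kb goes from 26.1% to 50.7% at 5 min and from 65.6% to 51.8% at 30 min.

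Starts dense in CpG had fronts farther into the gene. A start was called CpG dense where the 300 bases from 250 before to 50 after it had at least 50% GC and a CpG count of at least 0.6 times that expected from its base composition. By that definition 590 of the 1052 longest transcripts, 1 per gene, were CpG dense (56.1%), against 31.6% of transcripts of every length and 49.6% of the longest transcripts of 100 to 200 kb. CpG-dense starts, such as those of Chn2 and Bbs9 above, mark promoters that are usually open in every cell type. At 5 min, 18.2% of the fronts of CpG-dense very long genes were at 2.5 kb against 46.7% of the others, lower in 9 of 9 samples (exact sign-flip test, p = 0.0039). At 15 min the shares were 19.1% and 41.8% (lower in 9 of 9, exact p = 0.0039), and at 30 min they were 66.8% and 58.4%, the opposite order in 8 of 9 samples (exact p = 0.0078). Fronts above 2.5 kb stood at a median of 26.03 kb at 15 min in CpG-dense genes and 13.9 kb in the others, farther in 9 of 9 samples (exact p = 0.0039). Expression was not measured in these files, and its part in this difference was not tested.

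**Figure D3:**
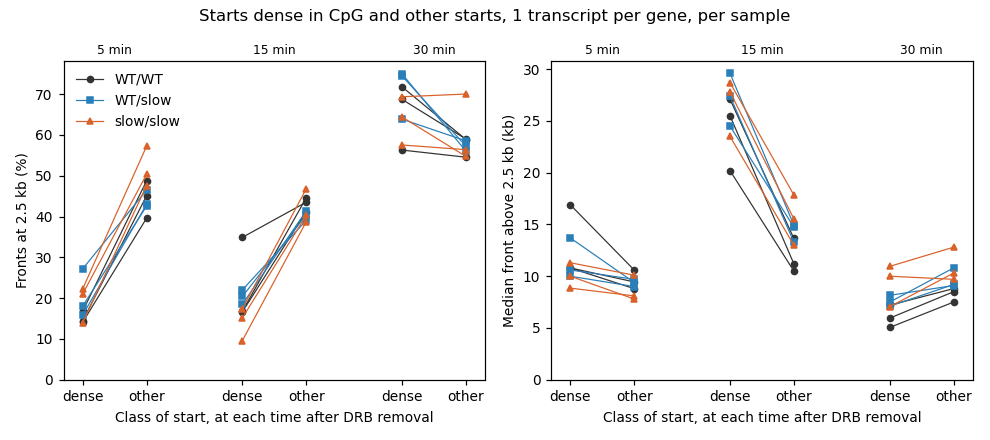
Share of fronts at 2.5 kb (%) and median of the fronts above 2.5 kb (kb) in very long genes with CpG-dense starts (590) and other starts (462), with 1 point per sample at each time after DRB removal, by genotype. The median is over every front not at 2.5 kb. At 5 and 15 min every sample has a lower share at 2.5 kb and a higher median at CpG-dense starts, and at 30 min the order is turned in 8 of 9 samples.

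The gene groups differed in how often the front was at 2.5 kb, counted with 1 transcript per gene over the 9 samples of a time. Among the 33 transcription factor and chromatin regulator genes with a very long transcript, 15.5% of fronts were at 2.5 kb at 5 min, 13.2% at 15 min and 68.0% at 30 min, and 24 of the 33 had CpG-dense starts. The 21 kinase, phosphatase and small GTPase regulator genes had 18.6%, 21.9% and 77.8%, with 17 CpG-dense starts, and the 12 trafficking, metabolism and genome maintenance genes had 6.5%, 16.7% and 80.6%, with 10. The groups used by neurons and muscle held the front at 2.5 kb more often at the early times. The 36 trans-synaptic and axonal adhesion genes had 44.4%, 39.7% and 49.8%, with 17 CpG-dense starts. The 27 neurotransmitter receptor and ion channel genes had 48.8%, 35.4% and 57.9%, with 14, and the 14 dystrophin, ankyrin and other cytoskeletal linker genes had 38.9%, 37.6% and 64.8%, with 4. The 19 common fragile site genes had 32.7%, 36.7% and 64.3%, with 11, where all 1052 genes had 30.2%, 28.8% and 63.1%, so that the fragile site genes lay above all genes at 15 min. These shares are descriptions, and no test was run on the lists.

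Several of the longest neuronal and muscle genes showed no front beyond 2.5 kb in almost any sample. The front of Cntnap2, whose longest transcript spans 2244 kb, was at 2.5 kb in all 27 samples. That of Dmd (2257 kb) was at 2.5 kb in 26 samples and at 10.7 kb in the first WT/WT replicate at 5 min. The metabotropic glutamate receptor gene Grm7 and the acid-sensing channel gene Asic2 were each at 2.5 kb in 24 of 27 samples. Pde4d was at 2.5 kb in all 9 WT/WT and all 9 slow/slow samples, but between 2.9 and 3.3 kb in all 9 WT/slow samples, so that WT/slow did not overlap the other genotypes at any time.

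Other genes above 1000 kb had fronts that spread widely among replicates. The Lrp1b fronts in WT/WT cells were at 15.8, 30.8 and 17.1 kb at 5 min, 5.8, 50.5 and 2.5 kb at 15 min, and 16.2, 23.0 and 12.8 kb at 30 min. The slow/slow fronts were at 13.7, 13.7 and 2.5 kb, then 16.1, 29.4 and 18.9 kb, then 29.2, 31.9 and 37.7 kb. No order of the times held in WT/WT cells, whereas the slow/slow replicates at 30 min were all at or above 29.2 kb. Macrod2, an ADP-ribose hydrolase gene at a fragile site, had fronts at 10.1, 16.6 and 16.8 kb at 5 min and 45.0, 28.4 and 10.3 kb at 15 min in WT/WT cells, which overlapped. Neither gene passed the test for progress in WT/WT cells.

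Fronts of single transcripts were compared with limma over all transcripts that had a front in every sample of the fit. At 5 and 15 min this held for 2564 very long transcripts of 24861 tested, and at 15 and 30 min for 2497 of 30532. Between 5 and 15 min, 138 very long transcripts of 80 genes moved farther in WT/WT cells and 13 were less far (Benjamini-Hochberg adjusted p below 0.05), which is 5.38% farther where 3.35% of all tested transcripts moved farther and 6.03% were less far. In WT/slow cells 234 transcripts of 99 genes moved farther and 2 were less far, where the percentages over all transcripts were 5.18 and 6.21. For slow/slow cells, 127 transcripts of 61 genes moved farther and 1 was less far, where they were 5.91 and 4.42. The median progress of the very long transcripts was 3.63 kb (WT/WT), 5.52 kb (WT/slow) and 6.27 kb (slow/slow), against -0.20, 0.267 and 2.17 kb over all transcripts tested. Those were of any length, and a front has less room to move in a short transcript. The part of length in these differences and percentages was not tested. Leaving out the third WT/slow replicate at 5 min brought the WT/slow count to 152, and leaving out any slow/slow replicate at 5 min brought the slow/slow count to between 73 and 78.

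Between 15 and 30 min the fronts went the other way. Whether fronts could be placed beyond the highest value of 58.8 kb at 30 min was not tested. In WT/WT cells 209 very long transcripts were less far at 30 min and 2 farther, where 3.9% of all transcripts tested were less far and 0.206% farther. The counts were 319 less far and 8 farther in WT/slow cells, where the percentages over all transcripts were 7.23 and 0.206, and 353 less far and 12 farther in slow/slow cells, where they were 14.2 and 0.848. No more than 11 very long transcripts had every front above 2.5 kb at 15 and 30 min, and of these limma called 1 less far in WT/WT cells, none in WT/slow cells and 1 farther in slow/slow cells, where 1, 0 and 2 passed in the same directions at an unadjusted p below 0.05. Without the second WT/WT replicate at 15 min the WT/WT count was 360. Without the second slow/slow replicate at 15 min the slow/slow count was 212, and it was 188 to 196 without any 1 of the slow/slow replicates at 30 min.

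The clearest progress was seen in transcripts whose fronts were above 2.5 kb in all 18 samples at 5 and 15 min, 271 transcripts of 127 genes. In WT/WT cells their sample medians were 12.3, 17.1 and 11.2 kb at 5 min and 32.0, 28.0 and 33.3 kb at 15 min. In WT/slow cells they were 10.3, 15.6 and 9.5 kb and then 32.3, 33.9 and 38.4 kb, and in slow/slow cells 12.2, 9.7 and 10.1 kb and then 31.8, 29.9 and 25.8 kb. No sample at 5 min overlapped one at 15 min. The difference between the group means was 17.6 kb (WT/WT), 23.1 kb (WT/slow) and 18.5 kb (slow/slow), or 1.76, 2.31 and 1.85 kb per min (exact permutation test, p = 0.1 each, the smallest that 3 against 3 samples allow). The progress of slow/slow cells differed from that of WT/WT cells by 0.933 kb (exact permutation p = 0.805), and that of WT/slow cells by 5.50 kb (exact permutation p = 0.135), and neither difference passed the test. Without the second WT/WT replicate at 15 min these differences were -0.617 kb (exact permutation p = 0.855) and 3.95 kb (p = 0.255 by the same permutation test). Without the second WT/WT replicate at 5 min they were -0.85 kb (exact permutation p = 0.74) and 3.72 kb (p = 0.31 by the same permutation test). The fronts of slow/slow cells in this set were at 10.7 ± 1.34 kb at 5 min and 29.2 ± 3.07 kb at 15 min, against 13.5 ± 3.14 and 31.1 ± 2.76 kb in WT/WT cells (SD, n = 3). The difference of -2.87 kb at 5 min was -1.08 kb without the second WT/WT replicate at 5 min.

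Genes of most groups moved forward between 5 and 15 min in only a few cases. Counted with 1 transcript per gene, 59, 87 and 53 of the 880 genes tested moved farther, in the order WT/WT, WT/slow, slow/slow that is kept below. Of the transcription factor and chromatin regulator genes tested, 3, 5 and 6 of 29 did so. Of the adhesion genes 2, 5 and 0 of 34 did, of the receptor and channel genes 1, 5 and 0 of 26, of the cytoskeletal linkers 2, 1 and 1 of 13 and of the kinase and GTPase genes 1, 2 and 1 of 19. None of the 12 trafficking and maintenance genes and none of the 18 fragile site genes tested passed in any genotype by limma, where 1, 4 and 5 trafficking and 0, 2 and 3 fragile site genes were farther at an unadjusted p below 0.05. At the same time the median progress of the trafficking genes was 9.4, 10.97 and 16.8 kb, against 3.6, 6.2 and 7.6 kb over all 880 genes. From 15 to 30 min, 83, 123 and 145 of 872 genes were less far in the 3 genotypes, with 4, 4 and 5 of 29 transcription factor genes, 3, 5 and 6 of 20 kinase genes and 2, 2 and 1 of 35 adhesion genes among them.

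Among single genes, Atg7, whose product is the E1-like enzyme of autophagy, had fronts that did not overlap between 5 and 15 min in any genotype, and was named for its small p for WT/WT progress. Such a choice favours far WT/WT fronts at 15 min, so the order of genotypes in Atg7 is not independent of it. Its 218 kb transcript (ENSMUST00000032457, chr6:114643097-114860614, plus strand) has no other annotated gene in its first 60 kb. In WT/WT cells the front was at 23.5, 19 and 11 kb at 5 min and 48.6, 52.5 and 47.6 kb at 15 min. In WT/slow cells it was at 5.6, 15.8 and 9.7 kb and then 36.3, 34.4 and 36.6 kb, and in slow/slow cells at 11.2, 10.2 and 8.4 kb and then 32.0, 31.7 and 31.2 kb. At 15 min the genotypes did not overlap, WT/WT being farthest, in intron 7, and slow/slow least far, in intron 3, and at 30 min all 9 samples were at 2.5 kb. The difference between slow/slow and WT/WT cells at 15 min was -17.9 ± 2.87 kb (SE, limma adjusted p = 0.00155), and that between WT/slow and WT/WT cells -13.8 ± 2.87 kb (limma adjusted p = 0.0199). Progress from 5 to 15 min was 31.7 kb (WT/WT), 25.4 kb (WT/slow) and 21.7 kb (slow/slow), and the comparison of progress between genotypes did not pass the test.

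Bbs9 (413 kb, ENSMUST00000039798, chr9:22475715-22888280, plus strand), whose CpG-rich start is shown above, also had its farthest fronts in WT/WT cells at 15 min. They were at 51.3, 54.1 and 52.5 kb in WT/WT cells, at 45.2, 39.5 and 21.9 kb in WT/slow cells and at 32.1, 38.2 and 23.4 kb in slow/slow cells, with no overlap between WT/WT and the others. The difference between slow/slow and WT/WT was -21.4 ± 5.74 kb (SE, limma adjusted p = 0.0396), and the call was lost in 12 of the 18 fits that left out 1 sample. At 5 min the fronts overlapped, at 13.4, 18.7 and 14.5 kb in WT/WT and 14.6, 17.6 and 33.4 kb in slow/slow cells. Chn2 (261 kb, ENSMUST00000046856, chr6:54039573-54300721, plus strand) had no front at 2.5 kb in any sample, and a different order. Its fronts at 15 min were at 31.8, 24.5 and 33.3 kb in WT/WT cells, at 41.5, 44.4 and 41.5 kb in WT/slow cells and at 25.9, 26.5 and 25.5 kb in slow/slow cells, so that WT/slow was farthest. WT/slow exceeded WT/WT by 12.6 ± 2.29 kb (SE, limma adjusted p = 0.00808), whereas slow/slow overlapped WT/WT.

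The very long genes the study itself followed after DRB removal were Itpr1, which encodes a calcium channel of the endoplasmic reticulum, and Utrn, which encodes utrophin, a relative of dystrophin. The study followed pre-mRNA at exon-intron junctions by RT-qPCR, a measure unlike the front. From it the study estimated a lower elongation rate in slow/slow than in WT cells for both genes. The Itpr1 front (338 kb, chr6:108213096-108551109, plus strand) was at 10.1, 30.6 and 38.2 kb at 5 min and 49.2, 2.5 and 36.9 kb at 15 min in WT/WT cells, which overlapped. The slow/slow front was at 9.3, 11.1 and 8.7 kb and then 29.8, 32.4 and 26.2 kb, which did not. No comparison of genotypes passed for Itpr1, and at 30 min its front was at 2.5 kb in 8 of 9 samples. The fall from 15 to 30 min was -37.9 kb in WT/slow (limma adjusted p = 0.0126) and -27.0 kb in slow/slow cells (limma adjusted p = 0.0460), the latter lost in 13 of the 18 fits that left out 1 sample. The Utrn front (480 kb, chr10:12382188-12861735, minus strand) was at 6.3, 8.7 and 4.4 kb at 5 min and 2.5, 2.5 and 6.3 kb at 15 min in WT/WT cells, and at 4.7, 2.5 and 2.5 kb and then 25.9, 17.9 and 18.5 kb in slow/slow cells. The slow/slow replicates at 15 min lay above all WT/WT replicates, but the comparison did not pass the test.

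Genes of other roles with the smallest p for WT/WT progress in their list, picked after the values were seen, gave the following fronts at 5 and then 15 min in WT/WT cells. Dscam, an adhesion molecule of neurons, was at 7.8, 7.8 and 9.0 kb and then 28.6, 36.7 and 31.1 kb. Dst, the cytoskeletal linker dystonin, was at 7.6, 3.7 and 10.6 kb and then 41.1, 56.6 and 56.8 kb, while it stayed at 2.5 kb in all 9 WT/slow samples. Neither gene had WT/WT replicates that overlapped between 5 and 15 min. Grin2a, an NMDA receptor subunit, was at 9.9, 7.2 and 18.7 kb and then 32.0, 27.5 and 26.4 kb, and its call was lost in 8 of the 18 fits that left out 1 sample. Lpp, a LIM-domain protein of cell adhesions that was counted in the transcription factor list, was at 9.6, 21.5 and 12.9 kb and then 42.2, 46.3 and 38.7 kb. Its slow/slow fronts at 15 min, at 30.2, 31.0 and 27.2 kb, all lay below these, an order that the pick by WT/WT progress favours.

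**Figure D4:**
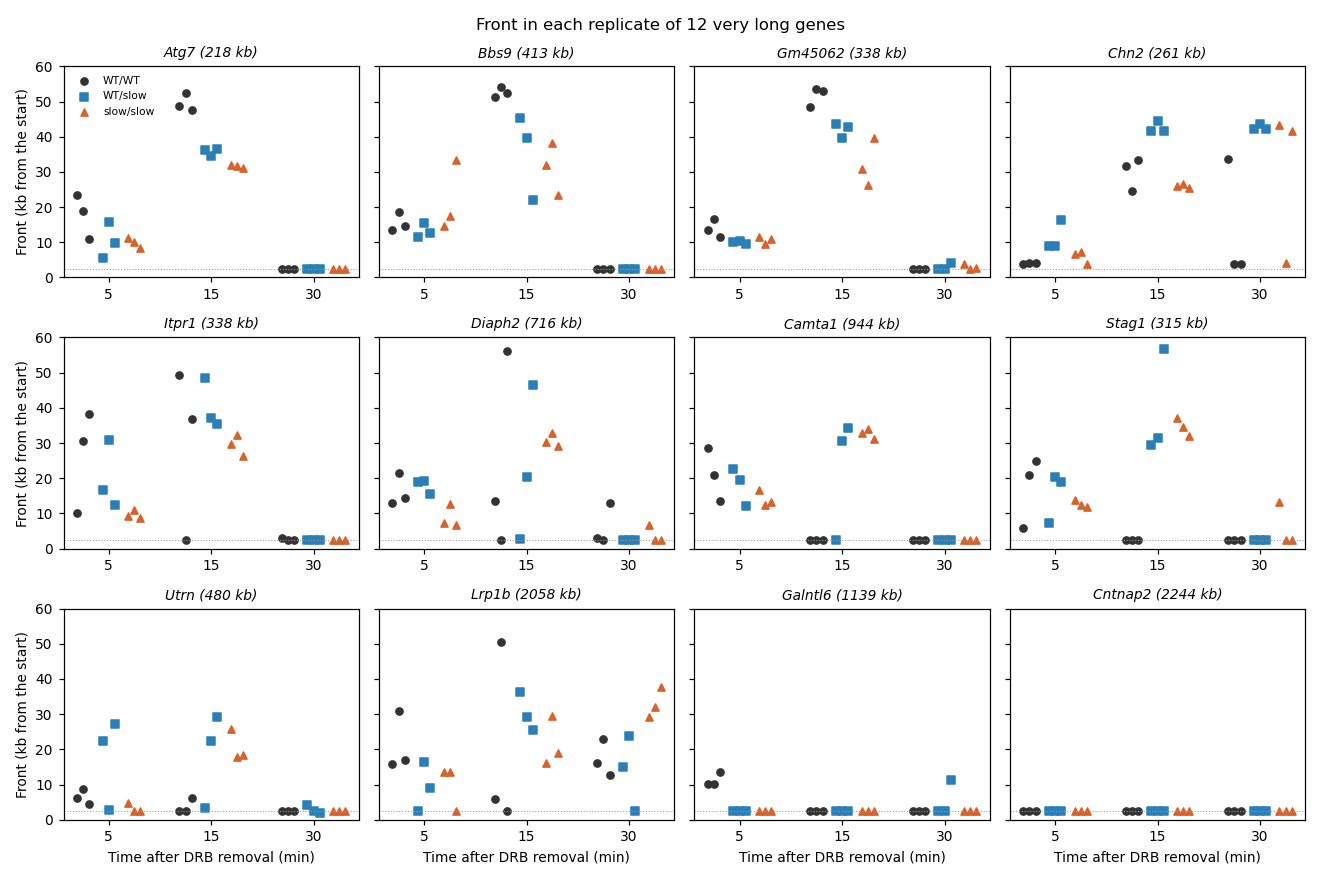
Front (kb from the start) in each replicate of 12 very long genes against time after DRB removal (min), by genotype, with a dotted line at 2.5 kb. At 15 min the fronts of Atg7, Bbs9 and Gm45062 are farther in every WT/WT replicate than in any slow/slow replicate, whereas Camta1 and Stag1 are at 2.5 kb in every WT/WT replicate. Several genes were named for their progress or its difference between genotypes, so these orders are not independent of the choice.

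Over all very long transcripts, no genotype difference at a single time could pass the exact permutation test. With 3 against 3 samples, that exact permutation test cannot go below p = 0.1. Over the 3 times together, an exact permutation test within times could pass, and no genotype difference did after adjustment over 20 tests. The median of fronts above 2.5 kb then differed by 1.72 kb between slow/slow and WT/WT cells (exact permutation p = 0.1965, adjusted p = 0.457). The share at 2.5 kb differed by 1.00 points (exact permutation p = 0.685, adjusted p = 0.761). At 5 min the share of fronts at 2.5 kb was 29.7 ± 1.37% in WT/WT, 33.7 ± 2.36% in WT/slow and 34.9 ± 3.77% in slow/slow cells (SD, n = 3). Only WT/slow and WT/WT did not overlap (exact permutation p = 0.1, adjusted p = 0.36 over 9 comparisons). At 15 min the median of every front, those at 2.5 kb included, was 16.75, 12.6 and 12.1 kb in slow/slow samples against 10.9, 4.3 and 9.0 kb in WT/WT samples, a difference of 5.75 kb with no overlap (exact permutation p = 0.1, adjusted p = 0.9). Without the second WT/WT replicate that difference was 3.87 kb. Among fronts above 2.5 kb the difference at 15 min was 3.82 kb, with overlap (exact permutation p = 0.3, adjusted p = 0.6), and it was 1.62 kb without the second WT/WT replicate. With the mean in place of the median it was -0.715 kb, and in the 271 transcripts above 2.5 kb in all samples at 5 and 15 min it was -1.93 kb, or -3.48 kb without that replicate, so that its direction depends on which fronts are counted.

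At 30 min the medians of fronts above 2.5 kb were 13.1, 9.6 and 10.4 kb in slow/slow cells against 8.1, 7.0 and 8.5 kb in WT/WT cells. The groups did not overlap and differed by 3.17 kb (exact permutation p = 0.1, adjusted p = 0.45). The share of transcripts with a front at 30 min was 97.9 ± 0.207% in WT/WT, 95.9 ± 0.590% in WT/slow and 94.6 ± 4.70% in slow/slow cells (SD, n = 3), and neither mutant genotype overlapped WT/WT (exact permutation p = 0.1, adjusted p = 0.225). The slow/slow difference of -3.35 points was -0.638 points without the second slow/slow replicate.

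Changes between times were compared between genotypes in the same way. From 5 to 15 min the change in the median of every front was 0.133 kb in WT/WT cells but 7.32 kb in slow/slow cells, a difference of 7.18 kb (exact permutation p = 0.04, adjusted p = 0.24 over 6 comparisons), which was 5.30 kb without the second WT/WT replicate at 15 min (exact permutation p = 0.075). For fronts above 2.5 kb the change was 7.47 kb (WT/WT), 11.2 kb (WT/slow) and 13.1 kb (slow/slow), and the slow/slow change exceeded that of WT/WT by 5.63 kb (exact permutation p = 0.12, adjusted p = 0.69). Without the second WT/WT replicate at 15 min the WT/WT change was 2.02 kb for every front and 9.67 kb for fronts above 2.5 kb, and the excess of 5.63 kb was 3.43 kb (exact permutation p = 0.22). The change in the share of fronts at 2.5 kb differed by -10.6 points between slow/slow and WT/WT cells (exact permutation p = 0.02, adjusted p = 0.06), and by -7.68 points between WT/slow and WT/WT cells (exact permutation p = 0.01, adjusted p = 0.06). Without that replicate these were -7.91 points (exact permutation p = 0.05) and -4.99 points (exact permutation p = 0.015). One difference in change passed after adjustment over the 6 comparisons of its own measure, and no adjustment was made over all measures together. From 5 to 15 min the share of transcripts with a front rose by 2.83 points more in slow/slow than in WT/slow cells (exact permutation p = 0.005, adjusted p = 0.03). That test did not pair same-numbered replicates, although those of slow/slow and WT/slow cells deviated together at 15 min (r of 0.144 to 0.270).

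The far end of the distribution was compared by a measure chosen after the values were seen. At 15 min it reached less far in slow/slow samples, by an exact permutation test that 3 against 3 samples cannot pass. The highest front lay between 57.2 and 58.8 kb in every genotype at every time, and what set it was not tested. The share of fronts at or above 50 kb at 15 min was 5.11%, 4.21% and 2.67% in WT/WT, 2.52%, 2.67% and 4.20% in WT/slow and 0.6004%, 0.335% and 0.821% in slow/slow cells. Every slow/slow sample lay below every sample of the other genotypes. Slow/slow and WT/WT differed by -3.41 points (exact permutation p = 0.1). The 90th percentile of the fronts was 44.1, 40.62 and 42.61 kb in WT/WT and 35.7, 34.4 and 31.4 kb in slow/slow cells, a difference of -8.61 kb with no overlap (exact permutation p = 0.1). At 30 min the share at or above 50 kb was higher by 0.451 points in slow/slow cells than in WT/WT cells, with no overlap (exact permutation p = 0.1).

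Where both genotypes had all 6 fronts above 2.5 kb, slow/slow fronts were less far in most very long transcripts. At 5 min this set held 1019 transcripts of 408 genes, of which 710 (69.7%) were less far in slow/slow cells, with a median difference of -2.37 kb, where 76.0% of all transcripts of any length in the same set were less far, by -2.8 kb at the median. The replicates did not overlap in 155 that were less far and 10 that were farther, where 15.7% and 1.58% of all transcripts of any length in the same set did so. At 15 min it held 838 transcripts of 358 genes, of which 513 (61.2%) were less far in slow/slow cells, with a median difference of -3.92 kb, where the share over all lengths was 57.3% and the median -1.6 kb. Without overlap there were 174 less far and 71 farther, where the percentages over all lengths were 18.8 and 8.77. The trait was not particular to very long transcripts. In the same sets of 100 to 200 kb transcripts, 76.1% were less far in slow/slow cells at 5 min, by -3.43 kb at the median, and 62.7% at 15 min, by -3.6 kb. WT/slow against WT/WT gave another picture at 15 min, where 302 of 717 transcripts (42.1%) were less far and the median difference was 2.40 kb, against 47.5% and 0.367 kb over all lengths. These counts describe the sets, whose members share samples and starts.

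**Figure D5:**
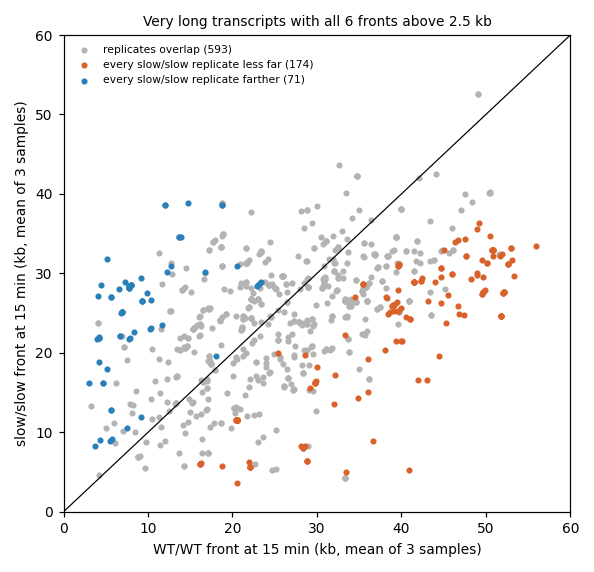
Mean front of 3 slow/slow samples against the mean front of 3 WT/WT samples at 15 min (kb), with 1 point for each of 838 very long transcripts whose 6 fronts were all above 2.5 kb; the line marks equal distance. Colours mark the 174 transcripts with every slow/slow replicate less far, which lie mostly at far WT/WT fronts, and the 71 with every slow/slow replicate farther, which lie at near WT/WT fronts. The colours were set from the same WT/WT fronts, a choice that favours these places, so that the places are not a result.

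In the limma comparison of slow/slow with WT/WT fronts at 15 min, 63 very long transcripts of 23 genes were farther in slow/slow cells and 42 of 28 genes less far, where 5.72% and 1.34% of all transcripts tested were. Of the 63 farther, 22 had all WT/WT replicates at or below 2.5 kb and 23 had all 6 fronts above 2.5 kb. Of the 42 less far, 31 had all 6 fronts above 2.5 kb and 5 had all slow/slow replicates at or below 2.5 kb. Leaving out the third WT/WT replicate at 15 min gave 72 less far, and leaving out the third slow/slow replicate at 15 min gave 23. For WT/slow against WT/WT, 55 were farther and 28 less far, where 1.73% and 0.587% of all transcripts were, and the 83 became 126 without the third WT/WT and 129 without the third WT/slow replicate at 15 min. At 5 min 2 were less far in slow/slow cells and none farther by limma (77 and 23 at an unadjusted p below 0.05), where 0.209% and 0.117% of all were. At 30 min 14 were farther and 2 less far, where 0.445% and 0.265% of all were, and the count was 31 in all without the second slow/slow replicate at 30 min.

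Progress from 5 to 15 min differed between slow/slow and WT/WT cells in 28 very long transcripts, with 22 of 8 genes larger and 6 of 5 genes smaller in slow/slow cells, where 2.85% and 0.229% of all transcripts tested did so. Among transcripts with every front above 2.5 kb the count was 0 by limma (17 larger and 19 smaller at an unadjusted p below 0.05). Leaving out the third WT/WT or the third WT/slow replicate at 15 min gave 67 and 56 transcripts, and leaving out any slow/slow replicate at 5 min or the second at 15 min gave 16 or 17. In the genes with larger progress, WT/WT fronts at 15 min were mostly at 2.5 kb. Camta1 (944 kb), whose CpG-rich start is shown above, had fronts at 28.5, 21 and 13.4 kb at 5 min and at 2.5 kb in all replicates at 15 min in WT/WT cells. The slow/slow fronts were at 16.7, 12.4 and 13.3 kb and then 32.8, 34.1 and 31.1 kb, with no overlap between genotypes at 15 min. Stag1, a cohesin subunit gene, likewise had WT/WT fronts at 5.8, 20.8 and 24.8 kb and then at 2.5 kb in all replicates, against 13.8, 12.5 and 11.7 kb and then 37.0, 34.6 and 31.9 kb in slow/slow cells. The differences in progress were 37.0 ± 9.04 kb for Camta1 (SE, limma adjusted p = 0.0440) and 36.5 ± 8.99 kb for Stag1 (limma adjusted p = 0.0461), and leaving out 1 sample lost the call in 14 and 13 of 18 fits.

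Ebf1, a transcription factor of B cells, had slow/slow fronts at 14.6, 7.9 and 8.2 kb at 5 min and 38.2, 24.8 and 42.8 kb at 15 min, against 16.9, 13.9 and 13.6 kb and then 16.8, 2.5 and 2.5 kb in WT/WT cells. Its progress differed by 32.6 ± 6.15 kb (SE, limma adjusted p = 0.00933), a call kept in all 18 fits that left out 1 sample. Chst9, a carbohydrate sulfotransferase, had WT/WT fronts between 2.5 and 2.6 kb at both times, and slow/slow fronts at 11.5, 7.3 and 6.1 kb and then 30, 44.3 and 46.5 kb. Its progress differed by 32.0 ± 4.43 kb (limma adjusted p = 0.00101). Galntl6, a member of the GalNAc transferase family, was at 10.1, 10.3 and 13.7 kb in WT/WT cells at 5 min and at 2.5 kb in 23 of the 27 samples, the other exception being 11.3 kb in a WT/slow sample at 30 min. Its progress thus differed between slow/slow and WT/WT cells by 8.87 ± 1.28 kb (limma adjusted p = 0.00150), although no slow/slow front moved.

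Smaller progress in slow/slow cells was called for Gm45062 and the long non-coding RNA Gm26551 among the named genes. Gm45062 (338 kb, chr6:8259450-8597480, plus strand), which shares its start with Umad1, had fronts at 13.6, 16.6 and 11.6 kb and then 48.5, 53.5 and 53.0 kb in WT/WT cells. In WT/slow cells they were at 10.2, 10.5 and 9.5 kb and then 43.7, 39.6 and 42.8 kb, and in slow/slow cells at 11.5, 9.4 and 10.8 kb and then 30.7, 26.4 and 39.5 kb. At 15 min no genotype overlapped another, but Gm45062 was named for its progress, a choice that favours far WT/WT fronts at 15 min. Progress differed between slow/slow and WT/WT cells by -16.1 ± 3.74 kb (SE, limma adjusted p = 0.0336, lost in 9 of 18 fits that left out 1 sample), and the difference at 15 min was -19.5 kb (limma adjusted p = 0.000449, kept in all 18). Gm26551 was at 11.3, 17.6 and 24.6 kb in WT/WT and 5.2, 2.5 and 2.5 kb in slow/slow cells at 15 min, with a difference in progress of -14.1 ± 3.32 kb (limma adjusted p = 0.0356, lost in 11 of 18), and other genes lie on both strands within its first 60 kb. Ano2, a calcium-activated chloride channel, was at 31.3, 21.7 and 21.1 kb in WT/WT and 6.6, 2.5 and 2.5 kb in slow/slow cells at 15 min, a difference of -20.8 ± 4.20 kb (limma adjusted p = 0.00758), but its difference in progress did not pass.

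Progress from 5 to 15 min differed between WT/slow and WT/WT cells in 15 very long transcripts, 12 larger and 3 smaller in WT/slow cells, where 0.495% and 0.0724% of all transcripts tested did so, and 23 were called with a replicate block. Galntl6 was among them, and the count ran from 9 to 49 when single samples were left out, with 49 without the third WT/WT replicate at 15 min. The change from 15 to 30 min, in which a fall is negative, differed between slow/slow and WT/WT cells in 38 very long transcripts. Its signed value was higher in slow/slow cells in 29 and lower in 9, where 0.747% and 2.72% of all transcripts tested did so. Where fronts fell in both genotypes, a higher value is a smaller fall. Gm45062 and Atg7 were among the 29, with fronts that had been farthest in WT/WT cells at 15 min and were between 2.5 and 3.8 kb in both genotypes at 30 min. Without the third WT/WT replicate at 15 min the count was 83.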

How the data were processed

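The authors aligned 4sU-DRB-seq reads to the mouse genome (GRCm38, mm10; Bowtie2 2.2.9 is named in the submitters' processing notes), kept uniquely mapped non-rRNA reads, binned them along transcripts and located the wave end with published software, each sample being set against the average of the 0 min samples. The deposited unit is the boundary, a distance in bases from the transcript start in steps of 100, not a count, and the read depth behind it is unknown. The annotation release is not given in the sources used here; 3106 of the 3109 members have a GENCODE M21 identifier.

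From the 27 deposited tables, transcripts of at least 200000 bases were selected. Summaries per sample were compared with exact permutation tests (3 against 3 samples cannot go below p = 0.1, and 3 pairs not below 0.25), sign-flip tests over samples with 100000 resamples, and limma 3.58.1 (R 4.3.3) on boundaries of all transcripts with a value in every sample of the fit, with Benjamini-Hochberg adjustment over all transcripts. The limma fit was tried on simulated data with independent normal errors. These lacked the pile-up of fronts at 2.5 kb and the shared starts, so that trial does not vouch for the calls given here. Python 3.11.15, NumPy 2.4.6 and pandas 2.3.3 were used. Starts were read from the RefSeq genome of GRCm38. Named genes were the 2 the study followed, per list up to 4 with most boundaries, the largest differences in progress, the 3 longest and the 4 with smallest p for WT/WT progress; 5 more were added after values were seen. The members and lists were chosen with earlier results of these data known. Alternatives covered the length limit, transcripts per gene, biotype, scale, samples and replicates. Same-numbered replicates deviated together (27 of 27 r above 0, up to 0.304), with every r over 0.1 at 15 min for WT/slow with WT/WT and with slow/slow; the fits with a replicate block are given with the alternatives. The values of some single genes are not reported here.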

Additional observations from a re-analysis of the deposited data

Results flagged for a closer look

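These results are given here because an effect differed between genotypes by a test of the difference itself. The share of very long transcripts with a front rose from 5 to 15 min by 2.83 percentage points more in slow/slow than in WT/slow cells (exact permutation p = 0.005, adjusted p = 0.03, without pairing of same-numbered replicates). By limma, 28 very long transcripts (1.09%) differed in progress from 5 to 15 min between slow/slow and WT/WT cells, where 3.08% of all transcripts tested did. For WT/slow against WT/WT cells there were 15 (0.585%, where 0.567% of all did). The change from 15 to 30 min differed between slow/slow and WT/WT cells in 38 (1.52%, where 3.47% of all did).

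Among the named genes, progress from 5 to 15 min exceeded that of WT/WT cells in slow/slow cells by 37.0 kb for Camta1, 36.5 kb for Stag1, 32.6 kb for Ebf1, 32.0 kb for Chst9 and 8.87 kb for Galntl6. For Gm45062 and Gm26551 the difference was -16.1 and -14.1 kb. Galntl6 also differed by 8.87 kb between WT/slow and WT/WT cells. From 15 to 30 min, slow/slow minus WT/WT cells was 19.9 kb for Gm45062 and 17.9 kb for Atg7, whose fronts were between 2.5 and 3.8 kb in both genotypes at 30 min. These positive values stand for a smaller fall in slow/slow cells.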

How the results depend on the processing

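Of 2766 alternatives computed, 2397 kept the direction and the side of the threshold and 24 reversed, none of the latter among the named genes, where 1623 of 1864 kept both. The causes were not tested. With the mean in place of the median, slow/slow minus WT/WT was -0.715 kb for fronts above 2.5 kb at 15 min (3.82 kb by the median), and the difference in change of every front was 2.32 kb from 5 to 15 min (7.18) and 0.656 kb from 15 to 30 min (-5.75), and of fronts above 2.5 kb 4.50 kb from 15 to 30 min (-0.65). In transcripts above 2.5 kb throughout 5 and 15 min the difference at 15 min was -1.93 kb. At 500 kb or more, WT/slow minus WT/WT above 2.5 kb was -0.65 kb at 15 min (2.62) and -0.20 kb at 30 min (0.90), the slow/slow difference in progress of every front was 4.58 kb (5.52 kb at 300 kb or more), and that above 2.5 kb from 15 to 30 min was 1.58 kb. With 1 transcript per gene the share at 2.5 kb, averaged over times with differences of opposite sign, was 1.82 points above that at 100 to 200 kb (3.63). At 30 min alone, chosen after seeing the data, the differences by length were -3.96 points, 0 kb and 1.66 kb, and by CpG class 8.44 points and -1.97 kb.

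Counts by limma moved by over 1.5 times as follows. For progress from 5 to 15 min, farther, WT/WT (138) gave 85 on the log2 scale, 70 with every front above 2.5 kb and 59 per gene; WT/slow (234) gave 144, 127 and 87; slow/slow (127) gave 199 with at least 2 of 3 replicates, 76 with every front above, 228 in 12 samples and 53 per gene. From 15 to 30 min, less far, the log2 scale, every front above and 1 per gene gave 343, 1 and 83 in WT/WT (209), 499, 0 and 123 in WT/slow (319) and 589, 0 and 145 in slow/slow cells (353). At 15 min slow/slow minus WT/WT gave, farther (63), 7 with every front above, 115 in 12 samples and 19 per gene, and, less far (42), 27 on the log2 scale, 14, 68 and 18. WT/slow minus WT/WT at 15 min (83) gave 38 on the log2 scale, 28 with every front above and 26 per gene. Differences in progress for slow/slow (28) gave 0 with every front above, 70 in 12 samples and 9 per gene, for WT/slow (15) 28 with 2 of 3 replicates, 7 and 4, and for 15 to 30 min (38) 70 with 2 of 3 replicates, 2 and 11. Slow/slow minus WT/WT at 5 min (2) gave 4 on the log2 scale, 7 with 2 of 3 replicates, 0 with every front above, 4 in 12 samples and 1 per gene, and at 30 min (16) 2 with every front above and 4 per gene.

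Leaving out 1 sample in turn gave ranges of -1.42 to 0.0429 points for the share with a front at 15 min, WT/slow minus WT/WT (0.0429 without the first WT/WT or the second WT/slow replicate), -0.838 to 5.51 points for the share at 2.5 kb at 30 min, slow/slow minus WT/WT (-0.838 without the second slow/slow replicate), -2.04 to 0.483 kb above 2.5 kb at 5 min, WT/slow minus WT/WT (0.483 without the second WT/WT replicate), -1.28 to 2.02 kb for WT/WT progress of every front, 5.30 to 8.60 kb for the slow/slow difference in it, -2.13 to 1.55 kb for the difference above 2.5 kb from 15 to 30 min (1.55 without the second WT/WT replicate at 15 min), and -0.206 to 1.20 points for the share with a front, 30 minus 15 min (1.20 without the second slow/slow replicate at 30 min). Counts ranged from 152 to 296 (WT/slow farther), 73 to 176 (slow/slow farther), 155 to 360 and 188 to 460 (less far from 15 to 30 min, WT/WT and slow/slow), 23 to 72 (less far at 15 min, slow/slow), 16 to 67, 9 to 49 and 27 to 83 (differences in progress for slow/slow, for WT/slow, and from 15 to 30 min), 1 to 6 (5 min), 69 to 129 (15 min, WT/slow) and 13 to 31 (30 min). The 49 and 83 came without the third WT/WT replicate at 15 min and the 129 without the third WT/slow replicate at 15 min. Of 86 calls for named genes, 25 were lost without some sample.

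In the 7 of 9 contrasts of genotypes in which some pair had r of 0.1 or less, the replicate numbers were not taken to pair the samples. Even so, 50 of 54 comparisons were highest for the shared number, which thus marked shared variation. The exact tests between genotypes given above took the samples as unpaired and left this variation out. In the contrast the replicate numbers were taken to pair and whose calls are reported, WT/slow against WT/WT at 15 min, the block gave 97 calls (83). With a replicate block the WT/slow difference in progress called 23 transcripts (15), slow/slow at 5 min 1 (2), and the median difference of 7.18 kb had an exact p of 0.25, the smallest 3 pairs allow. The block lost 9 of the 86 calls for named genes.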
